A study of Mus musculus with 8 samples.

Results

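The genes of polyamine metabolism were followed in quadriceps muscle of mice without and with the nuclear pore gene *Nup210*. Members were the genes of the deposited expression table whose name is *Odc1*, *Amd1*, *Srm*, *Sms*, *Smox*, *Sat1*, *Oaz1*, *Oaz2* or *Azin1*. The choice was by function and not by a measured value, but it was made with earlier results of these data known. They are 9 of the 47643 genes in the table, each name occurs once, and all 9 are among the 14229 genes that were tested, those whose mean TPM (transcripts per 1000000) was 0.5 or more.

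Quadriceps RNA came from 4 C57BL/6 mice labelled *Nup210*-/- and 4 C57BL/6 mice labelled *Nup210*+/+, with 1 library for each mouse, and the study's mice had been backcrossed to C57BL/6J. The *Nup210*-/- line carries a constitutive germline deletion of exon 2, made by crossing a floxed allele to Hprt-Cre, so every tissue lacks the exon from the embryo on. Neither group was injured or treated, and the age and sex of these mice are not given in the sources used here. Polyadenylated RNA was made into directional libraries and sequenced in single-end reads of 75 bases. The values are TPM, a share of each library corrected for transcript length.

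Polyamines are small, positively charged molecules that bind nucleic acids and that growing cells need. *Odc1* makes putrescine from ornithine, *Amd1* supplies the aminopropyl groups, and *Srm* and *Sms* use these to build spermidine and then spermine, while *Smox* and *Sat1* act in the opposite direction. Polyamines hold their own level down through the antizymes *Oaz1* and *Oaz2*, which send ornithine decarboxylase to the proteasome and which are themselves bound by the antizyme inhibitor *Azin1*. In skeletal muscle several of these genes are known to respond to androgen and to change in wasting.

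Antizyme is made only when the ribosome shifts reading frame at an internal stop codon, a step that polyamines promote. The genome (GRCm38) holds the following stretches of 30 bases around that stop. They are shown because this step lies downstream of the mRNA levels measured here, and because a pseudogene carries the same letters. Capitals mark the last sense codon, the stop codon and the next base.
Oaz1, chr10:80828276-80828305, plus strand: ggggcctcggtggtgcTCCTGATgtccctc
Oaz1-ps, chr17:17345926-17345955, minus strand: ggggcctcggtggtgcTCCTGATgtccctc
Oaz2, chr9:65686253-65686282, plus strand: agggcctctgtggtgcTCCTGATgcccctc
The stretch of *Oaz2* differed from that of *Oaz1* at 3 of 30 bases, none of them among the capitals, and that of the pseudogene *Oaz1-ps* did not differ. TPM count transcripts and do not show how often ribosomes shift frame.

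Each library summed to 1000000 TPM, 18185 to 19357 genes were above 0 in a library, and the number of reads behind a value is unknown, so precision rests on the spread between mice. *Nup210* itself was at 9.54, 10.8, 11.9 and 8.81 TPM in the libraries labelled *Nup210*-/- and at 5.71, 10.1, 9.19 and 6.71 TPM in those labelled *Nup210*+/+ (log2 fold change 0.44, SE 0.147, limma adjusted p = 0.231). The mRNA of the deleted gene was thus no lower under the knockout label. Because a value per gene also takes in the exons outside the deletion, it does not check the labels. For this line the paper reports a total loss of Nup210 protein, which it checked in muscles by immunoprecipitation and immunofluorescence. All 10 markers of muscle fibers were above 0 in every library, with a sum of 82640 to 95670 TPM. *Nup210*+/+ replicate 2 stood apart: 6 genes of granulocyte precursors, cells of the bone marrow, summed to 381.7 TPM there and to 0.31 to 2.12 TPM in the other 7 libraries, and 8 proliferation genes summed to 66.2 TPM there and to 2.09 to 4.09 TPM elsewhere. Results that rest on this library are given with and without it.

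No polyamine gene passed the test between genotypes. The comparison asks whether loss of Nup210 goes with a different level of these mRNAs in muscle. Log2(scaled TPM + 1) was compared with limma over the 14229 genes, where TPM were first scaled so that the median gene had the same level in each library, and p-values were adjusted over all genes. Of the 9 members, 0 passed an adjusted p of 0.05, against 0.112% of all genes tested (7 higher and 9 lower in *Nup210*-/-). Before adjustment 1 of 9 members had a p under 0.05, *Sms*, against 14.2% of all genes. The scaled TPM of the genotypes did not overlap for 1 of 9 members, again *Sms*, against 9.38% of all genes. The log2 estimate was above 0 for 6 members and below 0 for 3, with a median of 0.066 against -0.0061 over all genes tested, but with TPM as deposited, where the median of all genes was -0.085, the estimates of *Odc1*, *Amd1*, *Oaz1* and *Smox* were also below 0. In bulk tissue fewer cells of a type and less RNA per cell cannot be told apart, and p-values here measure the spread between mice.

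**Figure D1:**
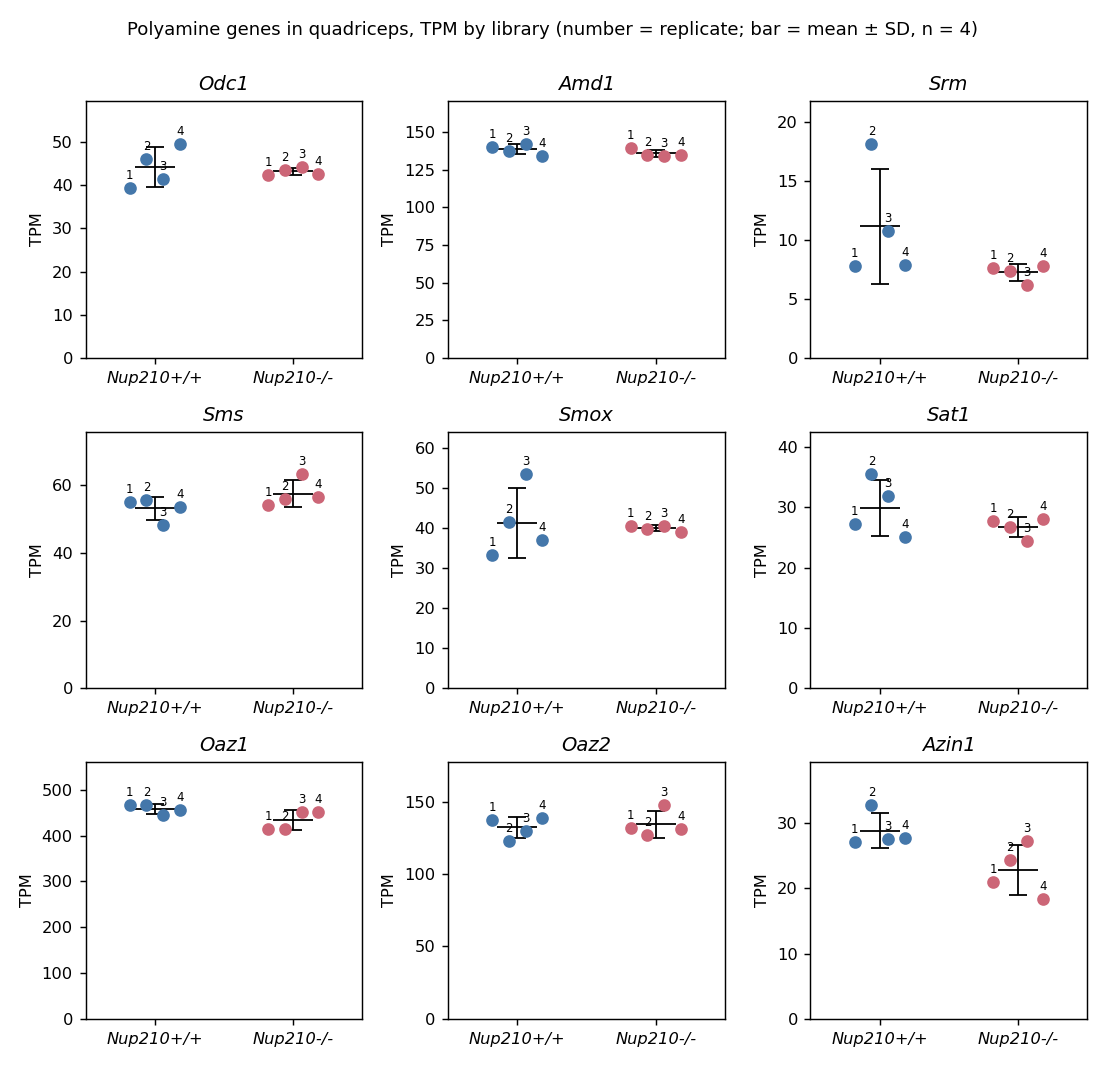
TPM of the 9 polyamine genes (y axes, from 0) in each library, by genotype (x axes), with blue points for *Nup210*+/+, red points for *Nup210*-/-, the replicate number above each point and the bar at the mean ± SD of 4 mice. The genotypes overlap for every gene on this scale, *Srm* is highest in *Nup210*+/+ replicate 2 at 18.2 TPM, and 3 of the 4 *Azin1* points of *Nup210*-/- lie below all those of *Nup210*+/+.

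The members covered a wide range of levels, and that order was nearly fixed from mouse to mouse. Mean TPM over the 8 libraries was 445.7 for *Oaz1*, 137.1 for *Amd1*, 133.2 for *Oaz2*, 55.2 for *Sms*, 43.7 for *Odc1*, 40.6 for *Smox*, 28.3 for *Sat1*, 25.8 for *Azin1* and 9.21 for *Srm*. The brake of the pathway was thus the most abundant mRNA of the 9, with a mean level above that of 98.7% of the genes tested, and spermidine synthase was the least abundant of the 9, above 55.3%. The ranges over the libraries did not overlap between *Oaz1* and *Amd1*, between *Oaz2* and *Sms*, or between *Azin1* and *Srm*. They did overlap between the other neighbors in the order: *Amd1* was above *Oaz2* in 6 of 8 libraries, *Odc1* above *Smox* in 7 of 8 and *Sat1* above *Azin1* in 6 of 8, while *Sms* was above *Odc1* and *Smox* above *Sat1* in 8 of 8. TPM are corrected for transcript length, which makes levels of different genes comparable.

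The genes of synthesis come next, beginning with *Odc1*, whose enzyme limits the rate of the pathway. *Odc1* (ENSMUSG00000011179, chr12:17544794-17551505, plus strand) was at 42.4, 43.5, 44.3 and 42.6 TPM in *Nup210*-/- and at 39.3, 46.2, 41.4 and 49.6 TPM in *Nup210*+/+. All 4 *Nup210*-/- libraries lay inside the range of *Nup210*+/+. The log2 fold change was 0.068 (SE 0.101, 95% interval -0.16 to 0.30, limma adjusted p = 0.792), and as a fold the interval runs from 0.894 to 1.23. The SD of scaled log2 values was 0.0215 in *Nup210*-/- and 0.221 in *Nup210*+/+, a difference in spread that was not tested. Leaving out single control mice moved the *Odc1* estimate, to 0.0025 without *Nup210*+/+ replicate 3 and 0.16 without *Nup210*+/+ replicate 4, the lowest and highest of that group after scaling. The SD was larger in *Nup210*+/+ for 7 of 9 members and for 62.8% of all genes tested.

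*Amd1*, S-adenosylmethionine decarboxylase, was the steadiest member. *Amd1* (ENSMUSG00000075232, chr10:40287458-40302186, minus strand) was at 139.2, 134.6, 134.0 and 134.9 TPM in *Nup210*-/- and at 140.0, 137.6, 142.0 and 134.2 TPM in *Nup210*+/+. The genotypes overlapped, with a log2 fold change of 0.066 (SE 0.0567, 95% interval -0.063 to 0.19, limma adjusted p = 0.622). Its highest library was 1.06-fold above its lowest, and its residual SD was smaller than that of all but 4.04% of the genes tested. The sequence of *Amd1* is largely shared: of 3130 windows of 75 bases along its transcript, 2565 (81.9%) also occur in another gene, mostly in the retrocopy *Amd2*. The 5 copies of *Amd1* together were listed at 0.96 to 4.58% of the TPM of *Amd1*, a split that depends on how RSEM shared out the reads and is therefore uncertain.

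*Srm*, spermidine synthase, had the estimate farthest from 0 among the 9, and the estimate was much smaller without a single library. *Srm* (ENSMUSG00000006442, chr4:148591503-148594993, plus strand) was at 7.65, 7.37, 6.21 and 7.81 TPM in *Nup210*-/- and at 7.81, 18.2, 10.8 and 7.85 TPM in *Nup210*+/+. The genotypes touch at 7.81 TPM, and after scaling they overlapped, with *Nup210*-/- replicate 4 at 8.345 scaled TPM against 7.6 in *Nup210*+/+ replicate 1. On both scales *Nup210*+/+ replicate 2, the library with granulocyte precursor and proliferation transcripts, was the highest. The estimate was a log2 fold change of -0.40 (SE 0.224, 95% interval -0.90 to 0.11, limma adjusted p = 0.443) and without that library it was -0.15. The part of those cells in the *Srm* level was not tested.

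*Sms*, spermine synthase, had the lowest p of the 9. *Sms* (ENSMUSG00000071708, chrX:157443855-157492287, minus strand) was at 54.1, 55.9, 63.1 and 56.3 TPM in *Nup210*-/- and at 54.9, 55.6, 48.1 and 53.5 TPM in *Nup210*+/+. The genotypes overlapped in TPM, with *Nup210*-/- replicate 3 highest and *Nup210*+/+ replicate 3 lowest. After scaling they no longer overlapped, at 57.2, 56.6, 62.8 and 60.2 scaled TPM in *Nup210*-/- and 53.5, 53.6, 42.8 and 56.0 in *Nup210*+/+. That was a log2 fold change of 0.20 (SE 0.0873, 95% interval 0.0068 to 0.40), or 1.15-fold, and limma gave an adjusted p of 0.337. With TPM as deposited the estimate was 0.11. In an exact two-sided permutation test over the 70 labelings p was 0.0286 on scaled TPM, the smallest value possible with 4 against 4, and 0.143 on TPM.

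In TPM, the scale on which *Sms* overlapped, the sums of fiber and of leukocyte markers separated the genotypes. The fiber sum went in the same direction as the *Sms* estimate and the leukocyte sum in the opposite one. These sums were not scaled, whereas *Sms* separated the genotypes only after scaling. Summed TPM of the 10 fiber markers, among them *Acta1*, *Ckm* and the myosin heavy chains, was 89650 to 95670 in *Nup210*-/- and 82640 to 88080 in *Nup210*+/+. All 10 marker estimates were above 0 after scaling and 8 of 10 with TPM as deposited, with a median log2 fold change of 0.19 after scaling. Of the 10, 4 had an unadjusted p under 0.05 and 2 had no overlap, against 14.2% and 9.38% of all genes tested. Among these markers 0 passed an adjusted p of 0.05. Summed TPM of the 10 leukocyte markers was 218.6 to 240.7 in *Nup210*-/- and 248.9 to 491.9 in *Nup210*+/+, a range that was the same without *Nup210*+/+ replicate 2. Of the 8 leukocyte markers tested, 7 had an unadjusted p under 0.05 and 6 had no overlap, against the same 14.2% and 9.38% of all genes. All of these were lower in *Nup210*-/-, and the median log2 fold change of the 8 was -0.59. The adjusted test was passed by 1 of the 8, against 0.112% of all genes. It was *Cd52*, a surface protein of lymphocytes and other leukocytes that is named after its value was seen (limma adjusted p = 0.049). Of the 8 fibroblast and tendon markers, 4 had an unadjusted p under 0.05, against 14.2% of all genes, all lower in *Nup210*-/-. Among these 8, 0 had no overlap and 0 passed the adjusted test. *Nup210*+/+ replicate 3 had the lowest *Sms*, the lowest fiber sum and the highest sums of leukocyte (491.9 TPM), adipocyte (713.4 TPM) and fibroblast and tendon (1091 TPM) markers, and it was the lowest library for 5 of the 9 members on scaled TPM but for 1 of 9 on TPM, since its scaling factor of 1.123 was the largest. Without it the *Sms* estimate was 0.12. The part of tissue composition in the *Sms* level was not tested.

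**Figure D2:**
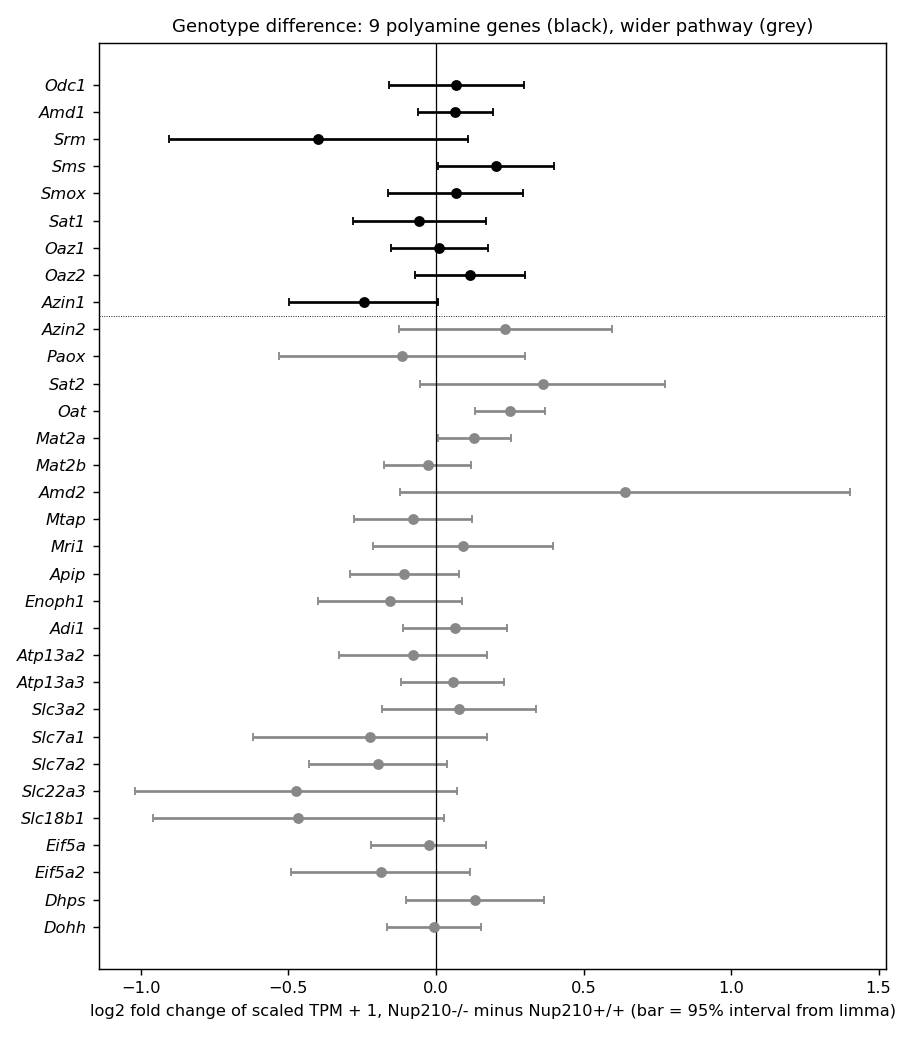
Log2 fold change of scaled TPM + 1 between *Nup210*-/- and *Nup210*+/+ (x axis, above 0 is higher in *Nup210*-/-) with its 95% interval from limma, for the 9 polyamine genes (black) and the 23 tested genes of the wider pathway (gray). The estimates of the 9 lie between -0.40 for *Srm* and 0.20 for *Sms*, and among all the genes drawn *Oat* stands farthest from 0 relative to its interval.

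Neither catabolic gene, *Smox* or *Sat1*, passed the test. *Smox*, which oxidizes spermine back to spermidine (ENSMUSG00000027333, chr2:131491496-131525922, plus strand), was at 40.6, 39.8, 40.4 and 39.0 TPM in *Nup210*-/- and at 33.4, 41.5, 53.4 and 37.1 TPM in *Nup210*+/+. The *Nup210*-/- values lay close together inside the *Nup210*+/+ range, whose highest library was replicate 3. Between genotypes the log2 fold change was 0.066 (SE 0.102, 95% interval -0.16 to 0.30, limma adjusted p = 0.798).

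*Sat1* acetylates spermidine and spermine, which marks them for breakdown or export. *Sat1* (ENSMUSG00000025283, chrX:155213132-155216449, minus strand) was at 27.7, 26.7, 24.4 and 28.1 TPM in *Nup210*-/- and at 27.2, 35.5, 31.9 and 25.2 TPM in *Nup210*+/+. The genotypes overlapped, and in TPM *Nup210*+/+ replicates 2 and 3 were above all other libraries. On scaled TPM only *Nup210*+/+ replicate 2 was, while replicate 3, at 28.43, was below *Nup210*-/- replicate 4 at 29.97. The log2 fold change was -0.056 (SE 0.0998, 95% interval -0.28 to 0.17, limma adjusted p = 0.826), and without *Nup210*+/+ replicate 2, the library with granulocyte precursor transcripts, it was 0.027.

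The antizyme system held both the highest mRNA of the pathway and the estimate with the second lowest p among the members. *Oaz1* (ENSMUSG00000035242, chr10:80826656-80829290, plus strand) was at 414.8, 414.0, 451.7 and 451.7 TPM in *Nup210*-/- and at 467.0, 466.9, 443.7 and 456.0 TPM in *Nup210*+/+. In TPM *Nup210*-/- replicates 1 and 2 were below every *Nup210*+/+ library, and replicates 3 and 4 lay inside the range of that group. On scaled TPM *Nup210*-/- replicates 1 and 2, at 438.4 and 419.6, were above *Nup210*+/+ replicate 3 at 395.1. After scaling the log2 fold change was 0.012 (SE 0.0731, 95% interval -0.15 to 0.18, limma adjusted p = 0.958), and with TPM as deposited it was -0.083. Of the windows of 75 bases along *Oaz1*, 45.9% also occur in *Oaz1-ps*, whose frameshift stretch is printed above, and that pseudogene was listed at 4.19 to 11.3 TPM, 0.919 to 2.5% of *Oaz1*. Shared windows made up 30.5% of *Odc1*, 28.2% of *Sms*, 6.11% of *Oaz2* and 2.67% of *Sat1*, and 0 of the windows of *Srm*, *Smox* and *Azin1* occur elsewhere.

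*Oaz2*, the second broadly expressed antizyme, was on a level with *Amd1*. *Oaz2* (ENSMUSG00000040652, chr9:65668001-65690300, plus strand) was at 131.7, 126.6, 147.8 and 130.9 TPM in *Nup210*-/- and at 137.4, 123.1, 129.7 and 138.8 TPM in *Nup210*+/+. The genotypes overlapped, with a log2 fold change of 0.11 (SE 0.0825, 95% interval -0.072 to 0.30, limma adjusted p = 0.549). The estimate was 0.068 without *Nup210*+/+ replicate 3 and 0.18 without *Nup210*+/+ replicate 4.

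*Azin1* resembles ornithine decarboxylase but has no activity of its own, and it frees the enzyme by taking up antizyme. *Azin1* (ENSMUSG00000037458, chr15:38487427-38519266, minus strand) was at 21.1, 24.4, 27.3 and 18.4 TPM in *Nup210*-/- and at 27.2, 32.8, 27.6 and 27.7 TPM in *Nup210*+/+. In TPM the genotypes overlapped only through *Nup210*-/- replicate 3, which was just above *Nup210*+/+ replicate 1. On scaled TPM *Nup210*-/- replicates 2 and 3, at 24.71 and 27.17, were above *Nup210*+/+ replicate 3 at 24.59. The log2 fold change of *Azin1* was -0.25 (SE 0.111, 95% interval -0.50 to 0.0053), or 0.843-fold, and limma gave an adjusted p of 0.361. The permutation p, exact over the same labelings, was 0.143 on scaled TPM and 0.0571 on TPM. *Nup210*+/+ replicate 2, with its granulocyte precursor and proliferation transcripts, was again the highest library, and the estimate was -0.18 without it and -0.17 without *Nup210*-/- replicate 4, the lowest. Other settings moved it away from 0, to -0.32 without *Nup210*-/- replicate 3, -0.30 without *Nup210*+/+ replicate 3 and -0.34 with TPM as deposited.

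**Figure D3:**
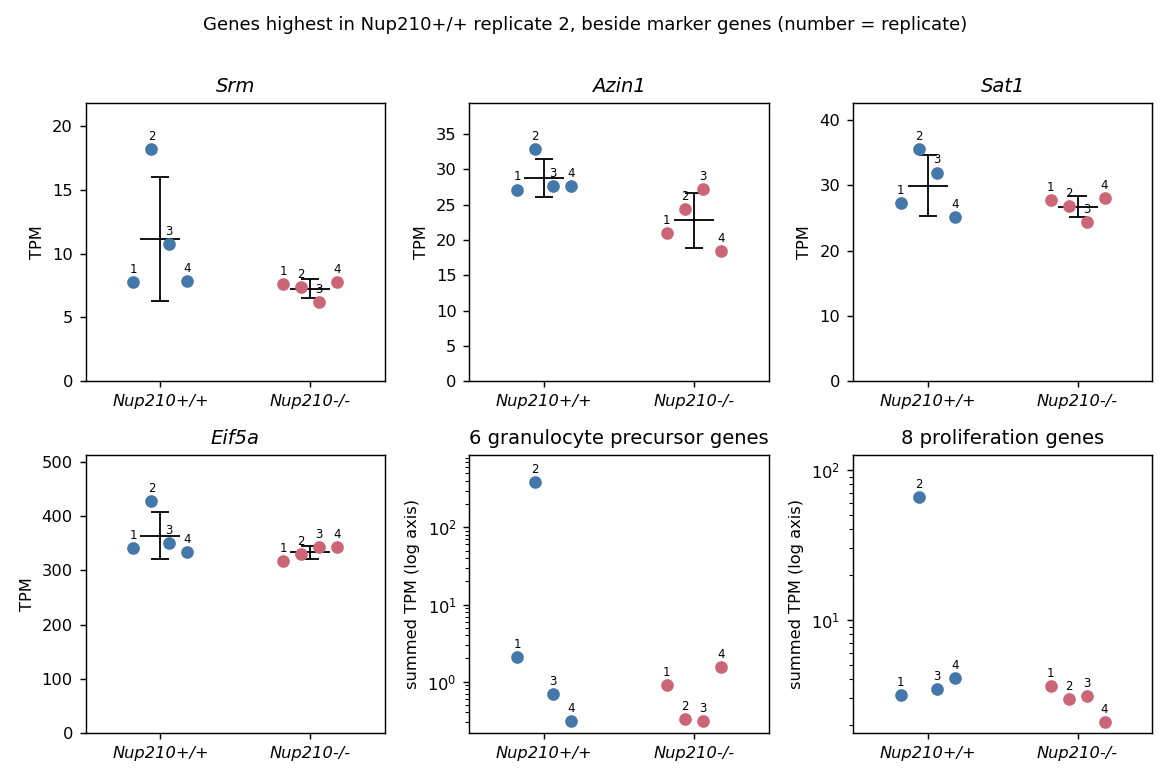
TPM of *Srm*, *Azin1*, *Sat1* and *Eif5a* (y axes from 0, bar at the mean ± SD of 4 mice) and summed TPM of 6 granulocyte precursor and 8 proliferation genes (log y axes), by genotype, with the replicate number above each point. The 6 panels drawn are ones in which *Nup210*+/+ replicate 2 is the highest library, so their shared rank is no test. The granulocyte precursor sum is 381.7 TPM in that library and at most 2.12 TPM elsewhere. Among the polyamine members, that library is highest in TPM for 3, all drawn here, and lowest for 1, *Oaz2*.

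Ratios between members of 1 library do not depend on the scaling, and 4 were set up as descriptions with no test. The ratio of *Azin1* to the sum of *Oaz1* and *Oaz2* was 0.0385, 0.0451, 0.0455 and 0.0317 in *Nup210*-/- and 0.0449, 0.0556, 0.0482 and 0.0466 in *Nup210*+/+. In every library antizyme mRNA was therefore many times that of its inhibitor, and the genotypes overlapped, at 0.0402 ± 0.00654 (SD, n = 4) and 0.0488 ± 0.00473 (SD, n = 4). The ratio of *Odc1* to *Amd1*, the enzymes that feed the synthases, was 0.318 ± 0.0112 (SD, n = 4) in *Nup210*-/- and 0.319 ± 0.041 (SD, n = 4) in *Nup210*+/+. The ratio of *Smox* to *Sat1* was 1.5 ± 0.111 (SD, n = 4) and 1.39 ± 0.232 (SD, n = 4), with overlap.

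The ratio of *Sms* to *Srm* was the only one of the 4 whose genotypes did not overlap. It was 7.08, 7.58, 10.2 and 7.21 in *Nup210*-/- and 7.03, 3.06, 4.46 and 6.81 in *Nup210*+/+. Spermine synthase mRNA thus exceeded spermidine synthase mRNA in every mouse, the gap between genotypes was as narrow as 7.08 against 7.03, and the lowest ratio was that of *Nup210*+/+ replicate 2.

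**Figure D4:**
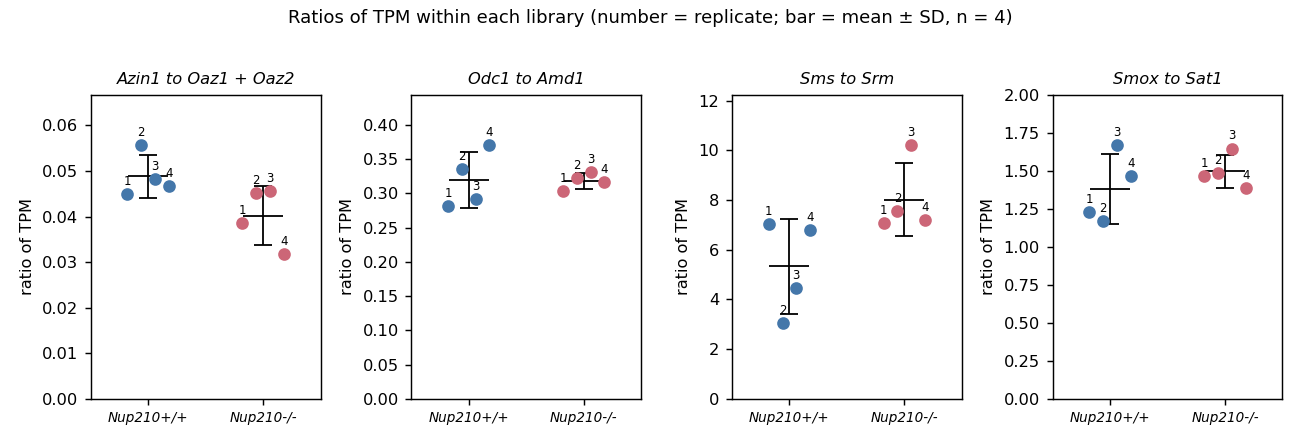
Ratios of TPM within each library (y axes, from 0) by genotype for *Azin1* to *Oaz1* + *Oaz2*, *Odc1* to *Amd1*, *Sms* to *Srm* and *Smox* to *Sat1*, with the replicate number above each point and the bar at the mean ± SD of 4 mice. The *Sms* to *Srm* ratio alone has no overlap, and its *Nup210*+/+ values run from 3.06 to 7.03.

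A wider list of 32 polyamine genes gave the surroundings of the 9, and 23 of them were tested. Of the 23, 0 passed an adjusted p of 0.05, 2 had an unadjusted p under 0.05 and 1 had no overlap of genotypes, against 0.112%, 14.2% and 9.38% of all genes tested, so such genes were no more frequent on the list than among all genes. Their median log2 fold change was -0.025, with 10 estimates above and 13 below 0.

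In the supply of precursors, 4 of 7 genes were tested, and *Oat* had the lowest p of the list. Ornithine aminotransferase, the product of *Oat*, consumes or yields ornithine, the substrate of *Odc1*. *Oat* was at 165.0, 168.5, 163.4 and 164.9 TPM in *Nup210*-/- and at 146.9, 150.8, 152.7 and 142.8 TPM in *Nup210*+/+. All 4 *Nup210*-/- libraries were above all 4 *Nup210*+/+ libraries. *Oat* had a log2 fold change of 0.25 (SE 0.0529, 95% interval 0.13 to 0.37, limma adjusted p = 0.116), which is 1.19-fold, and the exact permutation test gave p = 0.0286. In TPM the fiber marker sums were likewise higher and the leukocyte marker sums lower in *Nup210*-/- without overlap, as given beside *Sms*. The part of tissue composition in the *Oat* level was not tested. *Mat2a*, which makes S-adenosylmethionine, had a log2 fold change of 0.13 (limma adjusted p = 0.332), and its TPM overlapped. *Arg1*, the arginase that makes ornithine in liver, was listed at 0.06, 0, 0 and 0 TPM in *Nup210*-/- and at 0.08, 0.07, 0.15 and 0.14 TPM in *Nup210*+/+. These did not overlap, and the permutation p was 0.0286 (exact), but the level was under the minimum for the fit across all genes.

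In the other parts of the list 0 genes passed the test. Among other antizyme and catabolic genes 3 of 6 were tested, and the highest, *Sat2*, had a log2 fold change of 0.36 (95% interval -0.053 to 0.78) at 2.39 to 5.36 TPM. All 5 genes of methylthioadenosine salvage, which recycles the by-product of both synthases, were tested, and *Adi1*, the highest, had an estimate of 0.064. Of 10 transporters 7 were tested, 5 of them with an estimate below 0 and with a median of -0.20, and *Slc3a2*, the highest, had an estimate of 0.079. The transporter estimates farthest from 0, named after their values were seen, were those of 2 weakly expressed genes. *Slc22a3*, an organic cation transporter, was at 0.54 to 1.08 TPM in *Nup210*-/- and 0.8 to 3.03 TPM in *Nup210*+/+, with an estimate of -0.47 (limma adjusted p = 0.407) and of -0.23 without *Nup210*+/+ replicate 2, its highest library. *Slc18b1*, a vesicular polyamine transporter, was at 2.12 to 3.95 TPM and 2.58 to 5.44 TPM, with an estimate of -0.47 (limma adjusted p = 0.374). Without *Nup210*+/+ replicate 2, its lowest *Nup210*+/+ library, the estimate of *Slc18b1* was farther from 0, at -0.65 (limma adjusted p = 0.189). The genotypes overlapped for both. *Slc7a2*, also named after its values were seen, was more highly expressed, at 16.98 to 21.21 TPM in *Nup210*-/- and 21.23 to 31.95 TPM in *Nup210*+/+. Its genotypes did not overlap in TPM (exact permutation p = 0.0286) but did on scaled TPM (exact permutation p = 0.114). The estimate of *Slc7a2* was -0.20 (limma adjusted p = 0.417). It was -0.11 without *Nup210*+/+ replicate 3, its highest library, and -0.26 without *Nup210*+/+ replicate 2, its lowest *Nup210*+/+ library. With TPM as deposited the estimates of *Adi1* and *Slc3a2* were below 0. All 4 genes of the hypusine branch, in which spermidine modifies the translation factor eIF5A, were tested. Of these *Eif5a* was at 427.7 TPM in *Nup210*+/+ replicate 2 and at 316.4 to 350.3 TPM in the other 7 libraries, with an estimate of -0.025, or 0.056 without that library.

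For *Odc1*, and for *Sms* as the member with the lowest p, the genes with the most similar pattern over the 8 libraries were looked up by Pearson correlation of log2(scaled TPM + 1). Nearest to *Odc1* were *Synj2bp* (r = 0.979), *Galnt1* (r = 0.968) and *Aimp1* (r = 0.963). Nearest to *Sms* were *Nfkbib* (r = 0.976), *Agpat1* (r = 0.974) and *Gstp1* (r = 0.974). These are the top of 14229 genes over 8 points that share library, scaling and tissue composition, and they are given as a description.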

How the data were processed

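The authors trimmed single-end reads from quadriceps polyA libraries, aligned them and estimated expression per gene, and the deposited values are TPM for 8 libraries, each summing to 1000000 within rounding. The submitters' processing notes name cutadapt 2.3, STAR 2.7.0d, RSEM 1.3.1 and mm10. The authors compared estimated counts with DESeq2, which TPM do not allow, so limma was used. TPM keep no depth.

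Each library was scaled by its median ratio to the geometric means of the 15225 genes that no library listed at 0. For the 14229 genes whose mean TPM reached 0.5, log2(scaled TPM + 1) was fitted with limma 3.58.1 in R 4.3.3 (eBayes with trend, genotype as the only term, Benjamini-Hochberg over all genes, threshold 0.05). With a pseudocount of 1, folds of low genes are understated. The pipeline was tested on simulated data. Permutation tests were two-sided, exact over 70 labelings. Groups came from the sample labels. No library repeated another: pairs shared equal nonzero TPM for at most 86 of the tested genes.

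Members, lists, rules and tests were chosen with earlier results of these data known. Genes were named by rule: all members, *Nup210*, in each pathway list the highest gene and any without overlap of genotypes or with an unadjusted p under 0.05, the 3 genes nearest to *Odc1* and to the member of lowest p, and copies of members above 0. Marker lists were muscle fiber (10 genes), granulocyte precursor (6), leukocyte (10), proliferation (8), adipocyte (6), fibroblast and tendon (8) and endothelial (5), and endothelial sums were 64.7 to 74.2 TPM in *Nup210*-/- and 70.1 to 84.9 TPM in *Nup210*+/+. Coordinates, windows and sequences are from GENCODE M21 on GRCm38, a newer annotation than that of the authors. An opposite-strand exon overlaps *Azin1*, and *Mir1982* lies within *Oaz1*. Alternatives were other pseudocounts, filters, scalings and variance models, library weights, a replicate block and each library left out. Figures used matplotlib 3.10.9.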

Additional observations from a re-analysis of the deposited data

Results flagged for a closer look

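In 56 groups of 4 libraries, the gap between the extreme library and its neighbor was set against the whole range of the group, and shares above Dixon's 95% critical value for 4 values mark a library far from the rest. If the groups were independent, chance alone would mark about 1 in 20, here 2.8, and 7 were marked, 4 of them through *Nup210*+/+ replicate 2. The groups come from the same 8 libraries, and the marker lists were chosen with earlier results of these data known. The count of 7 against 2.8 is therefore a description and no test.

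In that library *Azin1* reached 32.8 TPM, and the remaining *Nup210*+/+ mice had 27.2 to 27.7 TPM (share of range 0.905), and *Eif5a* was at 428 TPM against 335 to 350 TPM (0.832). The granulocyte precursor sum was 382 TPM against 0.31 to 2.12 TPM (0.995), and the proliferation sum was 66.2 TPM against 3.16 to 4.09 TPM (0.985). Whether the cells behind these sums account for the *Azin1* and *Eif5a* levels was not tested.

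Among the *Nup210*-/- libraries, *Amd1* was at 139 TPM in replicate 1 against 134 to 135 TPM in the others (0.831). The ratio of *Sms* to *Srm* was 10.2 in replicate 3 against 7.08 to 7.58 (0.837). *Arg1* was at 0.06 TPM in replicate 1 and listed at 0 in the others (1.0).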

How the results depend on the processing

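Under all 19 alternatives 0 of the 9 members and 0 of the 23 tested pathway genes passed an adjusted p of 0.05, and the adjusted p of *Sms* ran from 0.2 to 0.527, of *Azin1* from 0.279 to 0.567, of *Srm* from 0.324 to 0.635 and of *Oat* from 0.0586 to 0.294. *Srm*, *Azin1*, *Sms* and *Oat* kept their direction under all of them. The count of members without overlap, 1, was 0 with TPM as deposited and with upper-quartile scaling, and 1 to 2 with a library left out, the added member being *Smox* without *Nup210*+/+ replicate 3.

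With TPM as deposited, the median of all genes was -0.085, and estimates turned sign for *Odc1* (-0.025), *Amd1* (-0.029), *Oaz1* (-0.083), *Smox* (-0.027), *Adi1* (-0.029) and *Slc3a2* (-0.014). *Oaz1* was also at -0.0057 with library weights, -0.024 without mitochondrial and top genes, and -0.042 to 0.047 with a library left out. *Eif5a* was at 0.0023 with library weights, 0.0011 with upper-quartile scaling and -0.079 to 0.056 with a library left out, where *Sat1* ran from -0.096 to 0.027 and *Smox* from -0.023 to 0.16. *Odc1* ran from 0.0025 to 0.16, *Oaz2* from 0.068 to 0.18 and *Slc3a2* from 0.02 to 0.16 there.

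The counts over all genes, 7 higher and 9 lower, moved by more than 1.5 times under most alternatives. They were 2 higher with TPM as deposited, 11 higher with a pseudocount of 0.1, 14 higher at a mean TPM of at least 1, 3 higher without mitochondrial and top genes, 43 higher and 41 lower with library weights, and 0 higher and 1 lower for any TPM above 0. They were 0 and 0 without the trend (1952 genes at an unadjusted p under 0.05), with upper-quartile scaling (2071 genes) and with the replicate number as a block (1850 genes). With a library left out they were 0 to 2 higher and 0 to 8 lower, with 1575 to 2681 genes at an unadjusted p under 0.05. The share of higher calls was 43.8%, against 14.3% with TPM as deposited and 23.1% without mitochondrial and top genes. The causes of these shifts were not tested.

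Replicate numbers occur in both genotypes, and the labels do not say whether they pair mice. Deviations of same-numbered libraries correlated at -0.0329 to 0.0857 and those of other pairs at -0.0814 to 0.103. These correlations cannot decide whether mice were paired. The block is given as an alternative only, and with it 0 members were called. Depth is unknown, so the counting error behind the low values of *Srm* could not be given.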
